A study of Mus musculus with 14 samples.

Results

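Fos, Fosb, Junb, Egr1, Egr2, Arc, Npas4, Nr4a1, Btg2 and Ier2 are immediate early genes, whose messenger RNA appears within minutes of neuronal stimulation. These 10 genes were found by their symbol in the deposited tables, out of 81411 loci in each table. In the single libraries they were found by their exons, out of 18735 genes with a value in any library. The genes were chosen by their class, with earlier results of these data in view: the pooled Fos values and the single-library log2 differences of this class were low in vehicle mutants and treated wild types against vehicle wild types. Every value set against the vehicle wild types is therefore given as a description. Calls, p-values and q-values printed for these comparisons are not read as tests of the members.

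RNA was sequenced from whole hippocampus of C57BL6 mice in 14 libraries. The mice were wild type or heterozygous for KMT2D+/bGeo, a gene trap allele of the histone H3 lysine 4 methyltransferase gene Kmt2d. TAK-418 inhibits LSD1, an enzyme that removes methyl groups from histone H3 lysine 4. It was given by gavage at 1 mg/kg/day, or its methylcellulose vehicle alone, for 2 weeks from 2 weeks of age, and the labels give their age as 30 days. The labels give 3 vehicle wild types, 3 vehicle mutants, 5 treated wild types and 3 treated mutants. The series' design text states 3 to 4 animals in each group, which the 5 treated wild types exceed, and all 5 were used. Replicate numbers were given here in accession order, only to name the libraries. The labels name no mouse, litter or batch for a library, so p-values measure the spread between these samples. Neither the time of day nor the handling before tissue collection is given in the sources used here.

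Immediate early genes are transcribed without new protein synthesis, when calcium entry and kinase signalling activate factors that already sit in the nucleus, among them CREB and serum response factor. The Fos, Jun, Egr, Npas4 and Nr4a1 products are themselves transcription factors that switch on a later set of genes, while Arc acts at the synapse. In the hippocampus they are widely read as marks of recently active neurons, and their messenger RNA decays quickly.

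The values by library are scaled abundances, that is, a gene's summed abundance per length of its assembled transcripts and per library total, divided by a library scaling factor. Relative depth, inferred from steps in the deposited abundances and not from read counts, was 35.1 to 60.0 M fragments in 13 libraries. It was 168 M in treated wild-type replicate 1. The libraries held 33819 to 48428 assembled transcripts. Fos, Fosb, Egr1, Arc, Npas4, Nr4a1 and Btg2 had a value in all 14 libraries, Egr2 in 9, Junb in 7 and Ier2 in 0. Abundance, length and depth together implied at least 3695 fragments per library for Egr1, 2893 for Arc, 1776 for Nr4a1, 338 for Npas4, 207 for Fos, 168 for Btg2 and 99 for Fosb. Counting error alone was thus at most 10.1% for these 7 genes, and 22.9% for Egr2 at its lowest value of 19 implied fragments. All 12 markers of hippocampal excitatory neurons had a value in every library, and their summed scaled abundance ran from 3715 to 4933. Since whole tissue was sequenced, fewer active cells and less RNA per active cell cannot be told apart.

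The upstream sequences of Fos, Junb, Nr4a1 and Btg2 are shown because the element most tied to activity-driven transcription, the cAMP response element bound by CREB, can be read in them. They are the 250 bases before the annotated start, from RefSeq on GRCm38.p6, written 5′ to 3′ on the gene's own strand. Capitals mark TGACG, the core of that element, on either strand (CGTCA on the opposite strand), its full palindrome TGACGTCA and the TATA sequence TATAAA. None of these 4 windows overlaps an annotated exon.
Fos, chr12:85473640-85473889, plus strand: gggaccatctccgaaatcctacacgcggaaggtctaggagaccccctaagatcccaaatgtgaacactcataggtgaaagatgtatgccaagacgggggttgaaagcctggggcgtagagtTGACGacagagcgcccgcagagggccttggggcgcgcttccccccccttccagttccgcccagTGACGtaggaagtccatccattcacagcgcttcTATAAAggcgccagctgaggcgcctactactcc
Junb, chr8:84978749-84978998, minus strand: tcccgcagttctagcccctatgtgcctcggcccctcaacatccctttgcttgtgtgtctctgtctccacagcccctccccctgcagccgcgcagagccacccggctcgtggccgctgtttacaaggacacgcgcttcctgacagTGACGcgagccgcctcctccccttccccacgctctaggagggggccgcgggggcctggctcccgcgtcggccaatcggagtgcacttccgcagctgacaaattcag
Nr4a1, chr15:101266596-101266845, plus strand: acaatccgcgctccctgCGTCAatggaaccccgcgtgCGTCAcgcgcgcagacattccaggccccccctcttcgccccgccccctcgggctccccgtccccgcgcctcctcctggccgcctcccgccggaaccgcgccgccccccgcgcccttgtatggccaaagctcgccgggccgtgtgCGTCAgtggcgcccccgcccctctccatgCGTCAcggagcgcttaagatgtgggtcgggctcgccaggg
Btg2, chr1:134079156-134079405, minus strand: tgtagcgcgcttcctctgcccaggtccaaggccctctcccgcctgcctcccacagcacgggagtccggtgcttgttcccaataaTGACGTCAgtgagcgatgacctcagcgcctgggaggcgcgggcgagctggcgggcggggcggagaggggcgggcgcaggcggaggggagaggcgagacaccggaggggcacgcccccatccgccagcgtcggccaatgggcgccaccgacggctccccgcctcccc

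TGACG stood in the windows of 7 of the 7 members that have one, Btg2, Egr2, Fos, Fosb, Junb, Npas4 and Nr4a1, against 17.7% of all 32817 RefSeq windows of this length. Egr2 has several annotated starts, and it was counted where any of its windows held the letters. In Fos the sequence lay at bases -129 to -125 and -66 to -62 from the start, with TATAAA at -33 to -28. Nr4a1 held 4 copies, the nearest at -40 to -36, and Junb held 1, at -106 to -102. Btg2 was the member with the full palindrome TGACGTCA, at -166 to -159, which 1.55% of all windows hold and which contains TGACG on both strands. The CArG box, the sequence bound by serum response factor, was found in Egr2 windows, though not in the one from base 67535249, and in 1.47% of all windows. TATAAA was found in Fos and in 12.4% of all windows. GGGCGG, the GC box, was found in 6 of the 7 members and 32.7% of all windows, and TGANTCA, the sequence bound by Fos and Jun dimers, in 0 of the 7 and 6.75%. These matches describe letters on both strands of a short window and show no binding.

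Fos, which encodes the partner of Jun proteins in the AP-1 transcription factor, lies on chromosome 12 at 85473890 to 85477273 (GRCm38, plus strand). Its scaled abundance was 5.25, 11.5 and 9.26 in vehicle wild-type replicates 1 to 3, and 3.49, 3.31 and 6.73 in vehicle mutants. It was 5.35, 5.08, 6.17, 4.74 and 5.18 in treated wild types and 6.33, 4.97 and 6.06 in treated mutants. Replicates 2 and 3 of the vehicle wild types were the highest of the 14 libraries, replicate 1 lay among the treated libraries, and 2 of the 3 vehicle mutants were the lowest. Group means were 8.69 ± 3.19 (SD, n = 3) in vehicle wild types, 4.51 ± 1.93 (SD, n = 3) in vehicle mutants, 5.31 ± 0.535 (SD, n = 5) in treated wild types and 5.79 ± 0.722 (SD, n = 3) in treated mutants. The spread was thus wider among vehicle than among treated libraries, and vehicle mutants overlapped every other group.

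Fosb, a second Fos family gene, lies on chromosome 7 at 19302696 to 19310051 (minus strand). Its values were 2.17, 3.20 and 3.06 in vehicle wild types, 2.01, 1.48 and 2.85 in the vehicle mutants, 2.25 to 3.51 with a median of 2.69 in treated wild types, and 3.49, 1.90 and 2.32 in treated mutants. All groups overlapped, and the highest library was a treated wild type.

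Junb, a Jun family partner of Fos proteins, lies on chromosome 8 at 84974484 to 84978718 (minus strand). A Junb transcript was assembled in vehicle wild-type replicates 2 and 3, at 34.4 and 27.4, in vehicle mutant replicate 3, at 0.895, in treated wild-type replicates 1 and 4, at 25.3 and 18.5, and in treated mutant replicates 1 and 2, at 22.5 and 23.1. The gene was listed at 0 in the other 7 libraries because no transcript was assembled there, which does not show that it was silent. The authors' deposited tables, which pool each group, gave Junb 28.2 for the wild types and 20.8 for the mutants on vehicle. Junb therefore gets no mean or fold here from the single libraries.

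Egr1, a zinc finger transcription factor linked to lasting synaptic change, lies on chromosome 18 at 34859823 to 34864984 (plus strand). Its scaled abundance was 43.1, 63.7 and 64.2 in vehicle wild types, 39.0, 34.9 and 51.4 in the vehicle mutants, 39.8 to 43.3 with a median of 41.5 in treated wild types, and 43.0, 38.9 and 49.0 in treated mutants. As for Fos, vehicle wild-type replicates 2 and 3 stood above all other libraries and replicate 1 did not. The 5 treated wild types lay close together, at 41.3 ± 1.37 (SD, n = 5), against 57.0 ± 12.1 (SD, n = 3) in vehicle wild types. Its relative Egr2, on chromosome 10 at 67535475 to 67542188 (plus strand), was low, at 0.678 to 1.90 in 9 libraries. It was highest in vehicle wild-type replicate 2 and listed at 0 in 5 libraries, at least 1 of each group.

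Arc, whose product removes AMPA receptors from synapses, lies on chromosome 15 at 74669083 to 74672570 (minus strand). Its values were 36.6, 53.2 and 52.3 in vehicle wild types, 33.6, 30.3 and 41.2 in the vehicle mutants, 31.2 to 37.9 with a median of 37.0 in treated wild types, and 35.2, 36.8 and 37.1 in treated mutants. Vehicle wild-type replicates 2 and 3 were again the highest of all, with replicate 1 inside the range of the other groups. Nr4a1, an orphan nuclear receptor, lies on the same chromosome at 101254269 to 101274795 (plus strand). It was at 25.1, 32.3 and 33.6 in vehicle wild types, 23.6, 20.2 and 24.2 in the vehicle mutants, 19.3 to 25.1 with a median of 22.3 in treated wild types, and 23.3, 26.2 and 22.6 in treated mutants. The 3 vehicle wild types lay above the 3 vehicle mutants, but replicate 1 overlapped the treated groups.

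Npas4, a transcription factor induced almost only by calcium entry in neurons, lies on chromosome 19 at 4984355 to 4990316 (minus strand). It was at 4.70, 4.68 and 5.25 in vehicle wild types, 4.76, 2.54 and 3.93 in the vehicle mutants, 2.57 to 3.49 with a median of 3.05 in treated wild types, and 3.90, 3.72 and 2.73 in treated mutants. Here vehicle wild-type replicate 1 was as high as replicates 2 and 3, and all 3 lay above all 8 treated libraries. The length of the assembled Npas4 transcript moved with this pattern only in part. The most abundant one was 2556 to 2601 bases long in the 3 vehicle wild types, 2575 to 4309 bases elsewhere, and its part in the difference was not tested. Vehicle mutant replicates 1 and 3 had transcripts of 2575 and 2577 bases and values of 4.76 and 3.93. Treated wild-type replicate 3 had one of 2592 bases, within the vehicle wild-type range, and a value of 3.05. Without division by length the log2 difference of treated mutants from vehicle wild types was 0.06, against -0.42 with it, and that of treated wild types was -0.36, against -0.55.

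Btg2, an antiproliferative gene induced by stimulation and by p53, lies on chromosome 1 at 134075170 to 134079120 (minus strand). It stayed in a narrow band, at 10.3, 9.34 and 9.53 in vehicle wild types, 9.03, 7.95 and 8.72 in the vehicle mutants, 7.98 to 9.80 with a median of 9.35 in treated wild types, and 12.6, 9.72 and 7.92 in treated mutants. The vehicle groups did not overlap, by a margin smaller than the spread in treated mutants. In vehicle mutant replicate 1 the assembled Btg2 transcript was 496 bases long, against a median of 2371 over the libraries, and without division by length the log2 difference between the vehicle groups was -0.86 in place of -0.17. Ier2, on chromosome 8 at 84661331 to 84662852 (minus strand), encodes a nuclear early response protein. No library had an assembled Ier2 transcript, and its values below come from the authors' deposited tables alone.

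**Figure D1:**
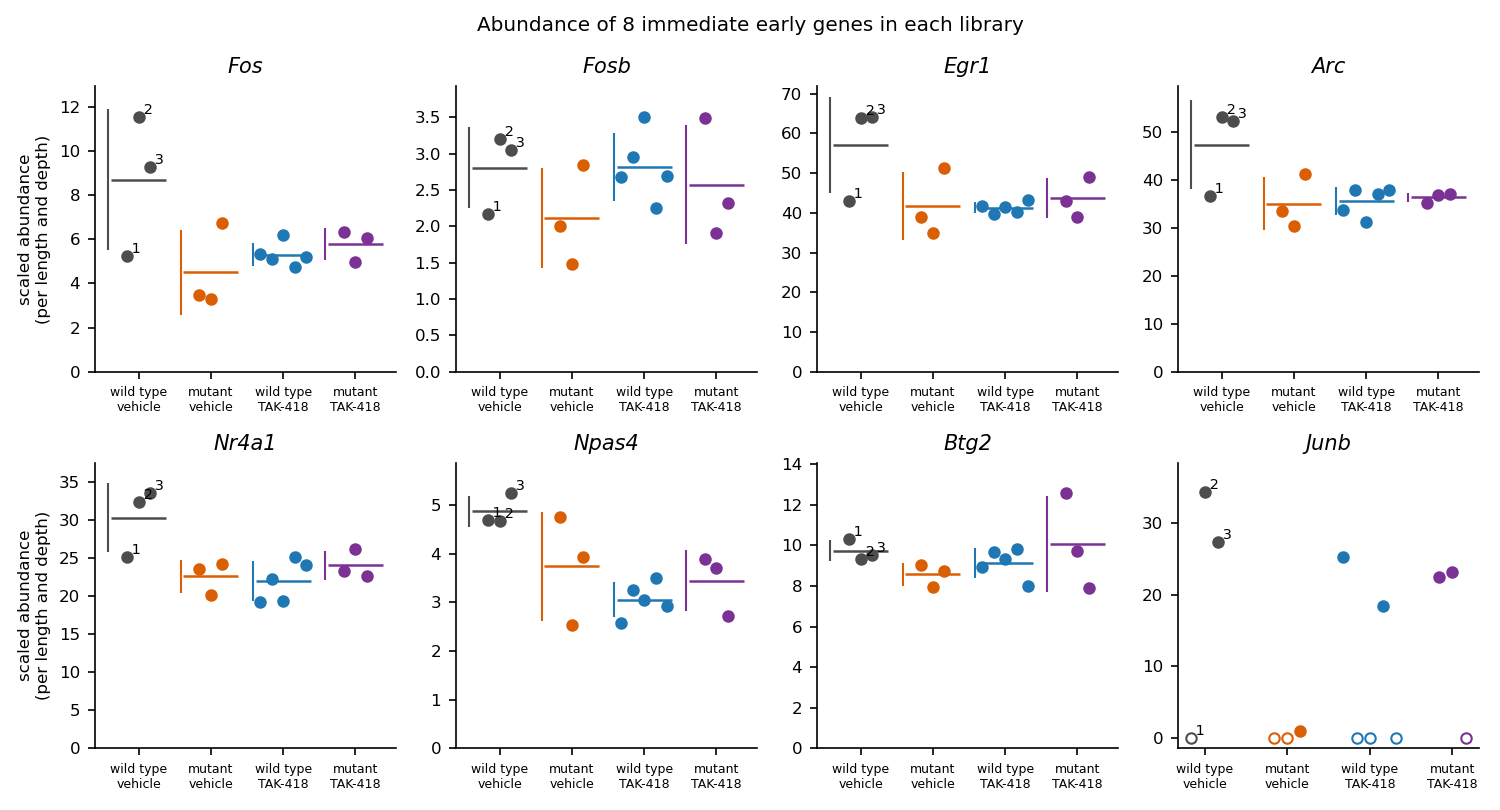
Scaled abundance of 8 genes in each of 14 libraries, by group; horizontal lines are group means, vertical lines 1 SD, digits number the vehicle wild types, and open points mark libraries with no assembled Junb transcript. For Fos, Egr1, Arc and Nr4a1, vehicle wild-type replicates 2 and 3 are the highest of all libraries, while replicate 1 lies within the range of the other groups.

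Against the vehicle wild types, most members had lower fitted values in each of the other groups, and none was called by limma over all genes. In vehicle mutants the 7 members with a value in all libraries were all lower, with log2 differences of -0.82 ± 0.26 (SE) for Fos, -0.44 ± 0.16 (SE) for Egr1, -0.42 ± 0.14 (SE) for Arc, -0.40 ± 0.13 (SE) for Nr4a1, -0.34 ± 0.17 (SE) for Npas4, -0.31 ± 0.20 (SE) for Fosb and -0.17 ± 0.13 (SE) for Btg2. In treated wild types 6 of the 7 were lower, led by Fos at -0.57 ± 0.23 (SE) and Npas4 at -0.55 ± 0.15 (SE), while Fosb was at 0.01 ± 0.18 (SE). In treated mutants 6 of the 7 were lower, with Fos at -0.47 ± 0.26 (SE) and Btg2 at 0.02 ± 0.13 (SE).

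The median over the 9 members tested was -0.40 in vehicle mutants, -0.43 in treated wild types and -0.31 in treated mutants, where the median of all 16580 genes tested was 0.00 in each. These 9 include Egr2 and Junb, which some libraries list at 0. Over the 7 members listed in every library the medians were -0.40, -0.43 and -0.35. Limma's adjusted threshold of 0.05 called 0 of 9 members in these 3 comparisons, where it called 0.0%, 0.0% and 0.00603% of all genes. At an unadjusted p under 0.05 there were 4, 5 and 4 of 9 members lower and 0 higher, where 2.84%, 3.26% and 2.23% of all genes were lower, and 5.48%, 8.43% and 5.37% differed in either direction. In groups that do not overlap, Nr4a1 and Btg2 were lower in vehicle mutants (as were 4.83% of 13274 genes listed in every library), Npas4 in treated wild types (2.65%) and Npas4 in treated mutants (4.51%). Since the list was chosen with such values in view, nothing is read from these counts, and the 3 comparisons share the same 3 vehicle wild types.

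The vehicle wild-type replicates pulled in different directions. Without replicate 1 the log2 difference of Fos between the vehicle groups was -1.11, and without replicate 2 it was -0.60. For treated wild types the same omissions gave -0.86 and -0.35, and for treated mutants -0.76 and -0.25. Single mutant libraries weighed on other members. Without vehicle mutant replicate 2 the difference between the vehicle groups was -0.14 for Npas4 and -0.16 for Fosb, and without vehicle mutant replicate 3 it was -0.48 for Fosb. In treated mutants Btg2 was at -0.13 without replicate 1 and 0.17 without replicate 3. The interaction, that is, the drug effect in mutants minus that in wild types, was above 0 for the 7 members with a value in all libraries. Its median over 9 members was 0.47, with Fos at 0.93 ± 0.34 (SE) and Nr4a1 at 0.53 ± 0.17 (SE). Limma called 0 of the 9 members for the interaction, and 0.00603% of all genes, and 4 members were higher at an unadjusted p under 0.05, as were 2.12% of all genes. The interaction contains the vehicle wild types too and is given as a description.

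**Figure D2:**
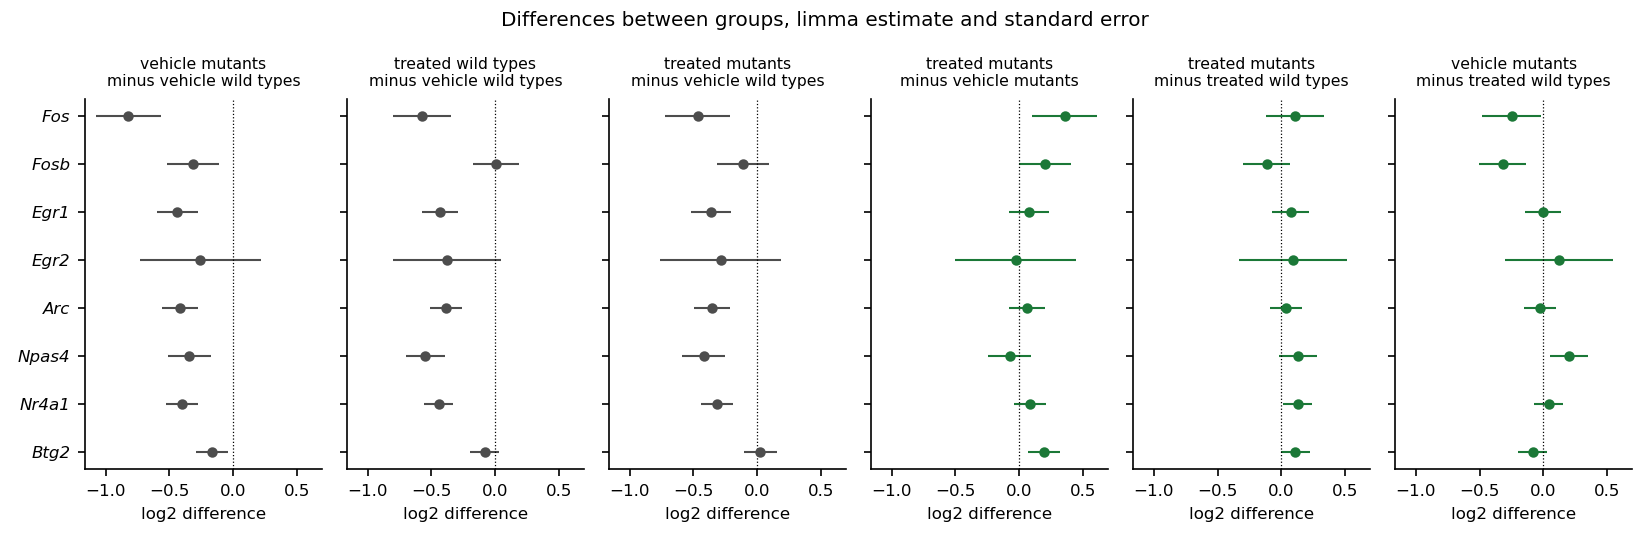
Log2 differences between groups for 8 genes as fitted by limma (points) with standard errors (bars), in grey for the 3 comparisons with vehicle wild types and in green for the 3 without them. Fos, Egr1, Arc, Npas4 and Nr4a1 lie below 0 in the 3 grey panels (Npas4 in treated mutants lies above 0 without division by length), while the green panels hold values of either sign with 0 members past the adjusted threshold.

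In the authors' deposited tables, which set pooled FPKM values of 2 groups side by side, Fos was the member with a q-value under 0.05, and 0.0% of loci in either table with vehicle wild types had one under 0.01. The authors' deposited table gave Fos 7.05 for wild types and 3.98 for mutants on vehicle, a log2 fold change of -0.83 with a q-value of 0.0270, where 0.224% of all tested loci had a q-value under 0.05. For treated mutants the authors' deposited table gave 7.10 and 4.45, a log2 fold change of -0.67 with a q-value of 0.0350, where 0.324% of loci were called. Arc came next in both, with 34.1 against 24.9 and a q-value of 0.0549 for vehicle mutants, and 34.3 against 25.4 and a q-value of 0.0669 for treated mutants, in the authors' deposited tables. All 10 members were lower in vehicle mutants by the authors' deposited table, with a median log2 fold change of -0.42 against -0.01 over all tested loci. Ier2 was at 3.23 and 3.01, Junb at 28.2 and 20.8, and Egr2 at 1.11 and 0.740 in that authors' deposited table, with q-values over 0.05. In treated mutants 8 of 10 were lower, with a median of -0.31 against -0.01, and Ier2 and Btg2 were the members with higher values in the authors' deposited table. Npas4 was at -0.13 there, against -0.42 by limma. At an unadjusted p under 0.05 the authors' deposited tables had 6 of 10 members lower in either comparison, where 2.15% and 2.52% of all loci were lower. The 2 tables share the vehicle wild types, and their pooled values hold no spread between mice. Since pooled Fos values were in view when the genes were chosen, the q-values of Fos are a description too.

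The comparisons that leave out the vehicle wild types gave no call of a member. Between treated and vehicle mutants, the log2 difference was 0.35 ± 0.26 (SE) for Fos, 0.20 ± 0.20 (SE) for Fosb, 0.19 ± 0.13 (SE) for Btg2, 0.09 ± 0.13 (SE) for Nr4a1, 0.08 ± 0.16 (SE) for Egr1, 0.06 ± 0.14 (SE) for Arc and -0.07 ± 0.17 (SE) for Npas4. All 7 had limma adjusted p-values of 1, the median over the 9 members tested was 0.09, and limma called 0 of the 9 against 0.00603% of all genes. This comparison shares the vehicle mutants with the one above, and their low values were in view when the genes were chosen. These small values turned on single libraries. Fos was at 0.20 without vehicle mutant replicate 2 and 0.63 without vehicle mutant replicate 3. Without treated mutant replicate 1, Fosb was at 0.02 and Btg2 at 0.03. Fosb reached 0.37 without vehicle mutant replicate 3, and Btg2 0.34 without treated mutant replicate 3. Nr4a1, Egr1, Arc and Npas4 ranged from 0.01 to 0.13, -0.04 to 0.23, -0.03 to 0.18 and -0.28 to 0.08, with vehicle mutant replicates 2 and 3 or, for the highest Npas4 value, replicate 1 left out.

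Between treated mutants and treated wild types the fitted values of the 7 members listed in every library lay between -0.12 ± 0.18 (SE) for Fosb and 0.13 ± 0.15 (SE) for Npas4, with Fos at 0.11 ± 0.23 (SE). Without treated mutant replicate 1 these were -0.30, 0.05 and 0.05. Fosb was at 0.03 and Fos at 0.20 without treated mutant replicate 2, and Npas4 was at 0.25 without treated mutant replicate 3. The smallest limma adjusted p of a member was 0.925, for Nr4a1, and 0 of 9 were called, against 0.0121% of all genes. Low values of treated wild types were in view when the genes were chosen, which limits this comparison too. The authors' deposited table for these groups came nearest to a call with Npas4, at 2.27 in treated wild types and 3.05 in treated mutants, a log2 fold change of 0.43 with a q-value of 0.0636. The locus behind that value runs to base 5001703, past the annotated gene, which ends at 4990316. The authors' deposited table called 0 of 10 members, against 0.218% of loci, and had 3 members higher at an unadjusted p under 0.05, Npas4, Nr4a1 and Ier2, where 3.42% of loci were. In that authors' deposited table the values of 8 of 10 members were higher and their median log2 fold change was 0.13, but the median of all tested loci was shifted to 0.12.

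Between vehicle mutants and treated wild types limma gave -0.32 ± 0.18 (SE) for Fosb and -0.25 ± 0.23 (SE) for Fos, against 0.20 ± 0.15 (SE) for Npas4, and Egr1 was at 0.00 ± 0.14 (SE). Without vehicle mutant replicate 2 the first 3 were -0.16, -0.10 and 0.40. Without replicate 3 Fosb was at -0.49 and Fos at -0.52, and without replicate 1 Npas4 was at 0.05. The smallest limma adjusted p of a member was 0.598, for Fosb, with 0 of 9 called, against 0.0% of all genes. Low values of both groups against vehicle wild types were in view when the genes were chosen, so nothing is read from their nearness here. The authors' deposited table called 0 of 10 members, against 0.611% of loci. It gave Fosb 2.41 in treated wild types and 1.87 in vehicle mutants, with a q-value of 0.297, and 5 of 10 members were lower. The members' median log2 fold change there was 0.00, where all tested loci had a median of 0.15 in the authors' deposited table. No member had groups without overlap in any of these 3 comparisons, in either direction. Of genes listed in every library, 4.54% were higher and 3.99% lower in this way in treated than in vehicle mutants, 2.37% and 2.73% in treated mutants against treated wild types, and 2.94% and 3.99% in vehicle mutants against those. At an unadjusted p under 0.05 limma also had 0 of 9 members in each, where 4.4%, 4.95% and 9.24% of all genes passed. A missed threshold does not show equal levels.

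Fos, Egr1 and Arc varied together from library to library, Fos and Egr1 most closely. Over the 14 libraries with group means removed, Pearson's r of the log2 values was 0.91 for Fos and Egr1, 0.83 for Egr1 and Arc, 0.83 for Arc and Nr4a1, 0.81 for Fos and Fosb and 0.73 for Fos and Arc. Without removing group means, r for Fos and Egr1 was 0.93 and Spearman's rho 0.86, and without vehicle wild-type replicates 2 and 3, the 2 libraries farthest from the median of Fos, r was 0.81 over 12 libraries. The relation of Fos and Nr4a1 rested on those 2 libraries, with r at 0.66 over 14 and 0.06 over 12, and Spearman's rho at 0.26. Arc and Nr4a1 had r of 0.91 over 14 libraries and 0.70 over 12. Fos and Arc had r of 0.84 over 14 libraries and 0.50 over 12, with Spearman's rho at 0.55. For Egr1 and Arc r was 0.92 over 14 libraries and 0.67 over 12.

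Btg2 had r of -0.06 with Fos, -0.26 with Egr1, -0.17 with Arc, -0.01 with Nr4a1, 0.36 with Fosb and 0.63 with Npas4 after group means were removed. Its r with Fos was 0.21 over 14 libraries without that step and 0.29 over the 12. Npas4 had r of 0.56 with Nr4a1, 0.35 with Fosb and 0.10 with Fos. Of the 21 pairs, 8 had r over 0.5 with group means removed. Without that step 11 had it over the 14 libraries, and 6 with 2 far libraries left out, which were not the same for every pair. These correlations are descriptions over 14 libraries that share 1 scaling, and the members had been chosen as a functional class.

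**Figure D3:**
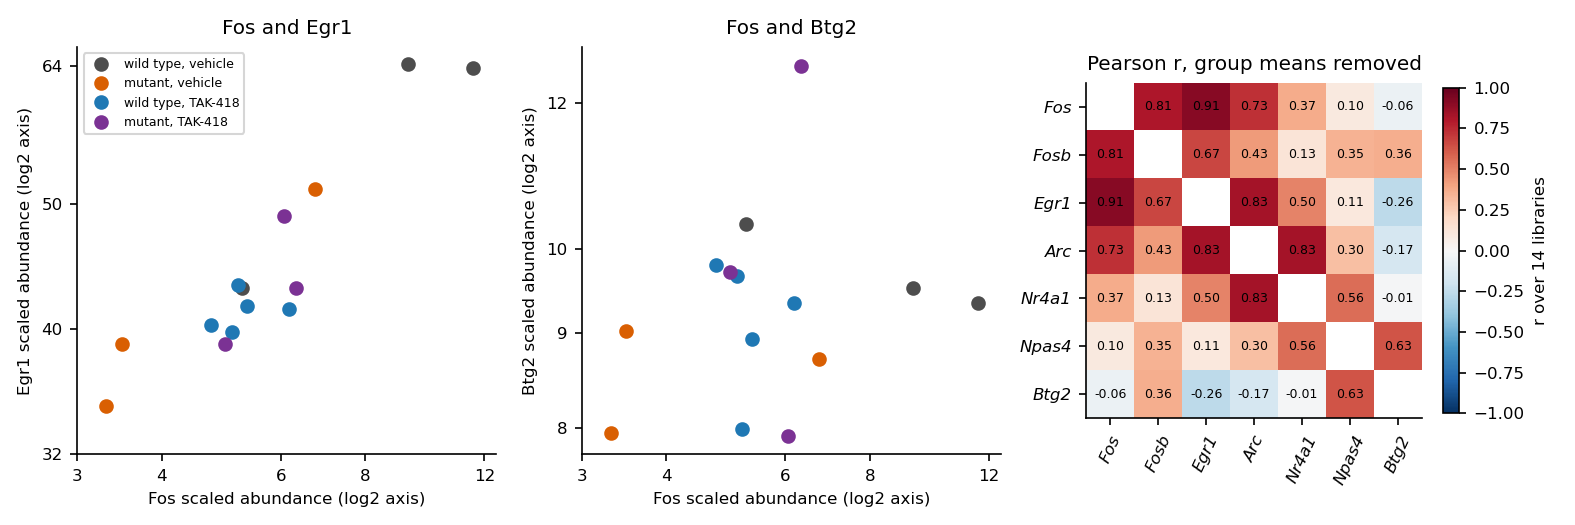
Scaled abundance of Egr1 (left) and Btg2 (centre) against Fos, each point 1 of 14 libraries on log2 axes, and Pearson's r between 7 genes with group means removed (right). With group means removed, r with Fos is 0.91 for Egr1 and -0.06 for Btg2.

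Fosb makes a long protein and the truncated, unusually stable ΔFosB, whose messenger RNA lacks a short intron within the last coding exon. That intron spans 140 bases at chr7:19305007-19305146 (GRCm38, minus strand), annotated as removed in Fosb-206 and Fosb-207, and 140 leaves a remainder of 2 on division by 3, so its removal shifts the reading frame. A 5-exon transcript with the intron removed was the only form assembled in 3 of 3 vehicle wild types, 1 of 3 vehicle mutants, 3 of 5 treated wild types and 1 of 3 treated mutants. A 4-exon transcript with the intron kept was the only form in vehicle mutant replicate 2 and treated mutant replicate 3. In the 4 libraries with both forms the 5-exon form made up 8.93% (vehicle mutant replicate 3), 21.4% and 16.2% (treated wild-type replicates 1 and 2) and 24.6% (treated mutant replicate 1) of the summed abundance. So 8 libraries held the 5-exon form alone, and all 3 vehicle wild types were among them, as was at least 1 library of every other group. The forms rest on 99 to 756 implied fragments for the whole gene, and an assembler that lists 1 form does not show that the other was absent.

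**Figure D4:**
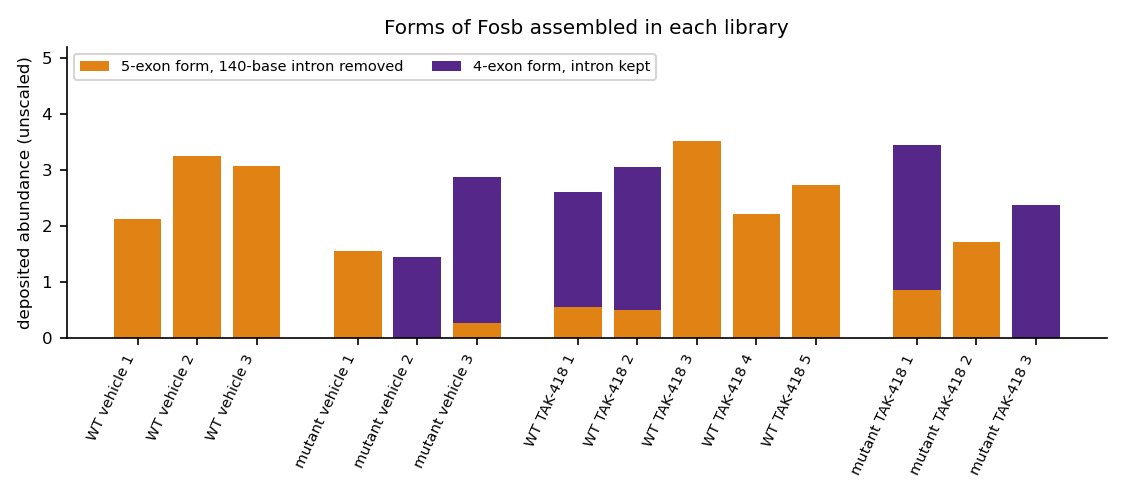
Deposited abundance of the 5-exon and the 4-exon form of Fosb in each library, before scaling, as stacked bars. The 3 vehicle wild types hold the 5-exon form alone, 4 libraries hold both forms, and vehicle mutant 2 and treated mutant 3 hold the 4-exon form alone.

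Nr4a1 was assembled from more than 1 start. A 7-exon form starting at base 101266871 of chromosome 15 was the most abundant in 13 libraries and made up 77.4% to 93.0% of the gene's spliced abundance there, and its start lies just past the end of the upstream window printed above, at 101266845. Other 7-exon forms, from starts at 101257941 and 101259821, were assembled in 1 library each, treated mutant replicate 1 and treated wild-type replicate 1. An 8-exon form from a start about as far upstream as the annotated gene reaches was the most abundant in treated wild-type replicate 1, at 86.6%, where the main 7-exon form was listed at 0. That library was also the deepest and the lowest in Nr4a1, at 19.3.

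Other genes of the activity response were taken from 4 lists. Of 44 further early response genes, 38 had a value in all libraries, and 28 of those were lower in vehicle mutants than in vehicle wild types, with a median log2 difference of -0.09. The count was 29 of 38 in treated wild types, at -0.13, and 29 of 38 in treated mutants, at -0.08. Of all genes listed in every library, 49.4%, 53% and 51.3% were lower in these 3 comparisons. Between treated and vehicle mutants 25 of 38 were higher, with a median of 0.03. Limma called 0 of these 38 in any of the 7 contrasts. At an unadjusted p under 0.05 it had 3 lower and 1 higher in vehicle mutants, 6 lower and 0 higher in treated wild types, and 2 lower and 1 higher in treated mutants, against vehicle wild types, where 2.84%, 3.26% and 2.23% of all genes were lower. In the 3 comparisons without vehicle wild types it had 1, 1 and 3, all higher, where 4.4%, 4.95% and 9.24% of all genes passed in either direction. These counts cover the 38 genes, while the shares cover all genes tested, also those not listed in every library. Among 24 late activity-regulated genes, the targets switched on by the early factors, 15 were lower in vehicle mutants, with a median of -0.01, and 18 were higher in treated than in vehicle mutants, at 0.04. Against vehicle wild types, 14 of the 24 were lower in treated wild types, at -0.02, and 14 were higher in treated mutants, at 0.02. Sv2c, a synaptic vesicle protein gene of that list, had 3.32 in treated wild types, 2.54 in vehicle mutants and a q-value of 0.0418 in the authors' deposited table. It was 1 of 21 late genes tested there, where 0.611% of all loci were called. In the limma comparison of the same groups Sv2c did not reach an unadjusted p under 0.05. The 22 regulators of early gene transcription with a value in all libraries, such as Camk2a, were 12 higher and 10 lower in vehicle mutants, with a median of 0.00. They were 16 higher and 6 lower in treated wild types, at 0.08, and 12 higher and 10 lower in treated mutants, at 0.01. Of 12 glucocorticoid-induced genes 6 were lower and 6 higher in vehicle mutants, with a median of -0.02. In either treated group 8 were lower and 4 higher, at -0.07 in treated wild types and -0.08 in treated mutants. Of the genes of these 3 lists with a value in all libraries, limma called 0 in any contrast. At an unadjusted p under 0.05 against vehicle wild types, the late genes had 3 lower and 1 higher in vehicle mutants, 3 lower and 1 higher in treated wild types, and 0 lower and 3 higher in treated mutants. The regulators had 0, then 2 lower and 3 higher, then 0, in the same order. The glucocorticoid-induced genes had 0 lower and 1 higher in vehicle mutants and 1 lower and 2 higher in either treated group. Over all genes 5.48%, 8.43% and 5.37% passed in either direction. The median of all genes lay within 0.01 of 0 in each.

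Markers of other cell types also differed among the libraries. The summed scaled abundance of 6 oligodendrocyte markers, all with a value in every library, was 3538, 5468 and 4716 in vehicle wild-type replicates 1 to 3, 3911 to 4244 in vehicle mutants, 3346 to 4514 in treated wild types and 3304 to 4331 in treated mutants. Replicates 2 and 3, the libraries highest in Fos, Egr1, Arc and Nr4a1, were thus also the highest in this sum, and replicate 1 was not. Over all 14 libraries, Pearson's r of this sum with the members' mean standardised log2 value was 0.42, and Spearman's rho was 0.34. That r was the highest among the marker lists, which also covered interneurons, astrocytes, microglia and endothelial cells. In the other marker lists r ran from -0.32 (blood) to 0.34 (choroid plexus). The part of the oligodendrocyte markers in the members' differences was not tested. Choroid plexus markers, of which 4 of 8 had a value in every library, summed to 6514 in vehicle wild-type replicate 3 and 5074 in vehicle mutant replicate 1. They summed to 915 in vehicle mutant replicate 3, 612 in treated mutant replicate 1 and 16.4 to 45.4 in the other 10. Without the 2 libraries highest in them, the members' median log2 difference was -0.36 for vehicle mutants and -0.37 for treated wild types against vehicle wild types, and 0 members were called. The 12 glucocorticoid-induced genes summed to 782 in vehicle wild-type replicate 3 and 1101 in replicate 1, the lowest and the highest of all libraries. The 5 blood markers ran from 310 to 1005. The part of either in the result was not tested.

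**Figure D5:**
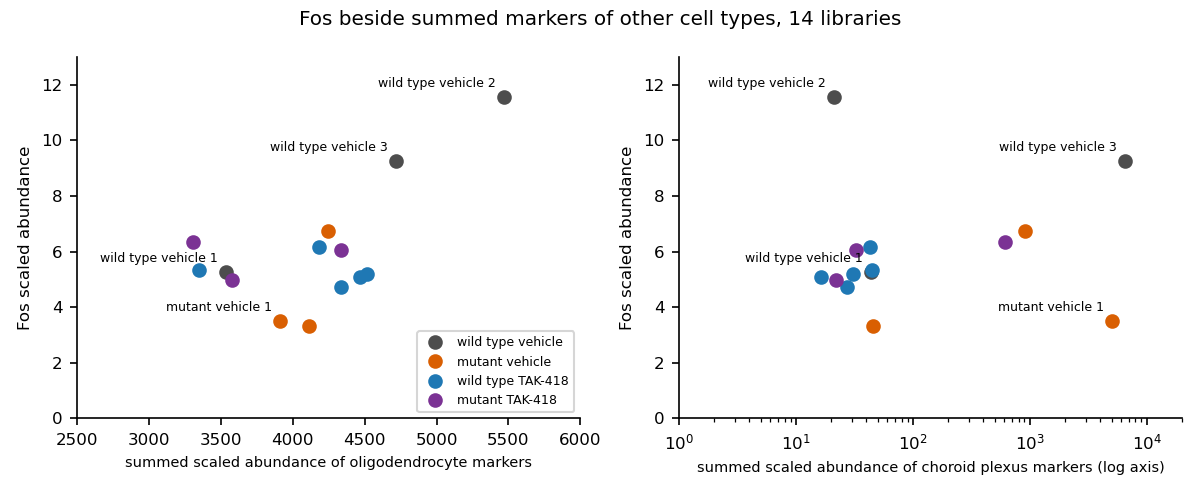
Scaled abundance of Fos against the summed scaled abundance of 6 oligodendrocyte markers (left) and 8 choroid plexus markers (right, log axis), each point 1 of 14 libraries. Vehicle wild-type replicates 2 and 3 are highest both in Fos and in the oligodendrocyte sum, while the choroid plexus sum is high in vehicle wild-type replicate 3 and vehicle mutant replicate 1, which differ in Fos.

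The genes whose log2 values over the 14 libraries were most like the mean of the 7 members were Ifnar2 (Pearson's r of 0.83), Smco3 (0.83), Stt3a (0.78), Wdr91 (0.77), Trf (0.77) and Ttyh2 (0.77). Ifnar2, a subunit of the type I interferon receptor, had a mean scaled abundance of 14.8 in vehicle wild types, 9.13 in vehicle mutants, 6.94 in treated wild types and 9.29 in treated mutants. Most like Fos were Smco3 (0.85), Arv1 (0.84) and Aspa (0.82). Over all 13274 genes with a value in every library the median r was 0.02 with the members' mean and 0.00 with Fos, and the 95th percentile was 0.47 and 0.48. These are the top of a ranking of all genes and are given without a test.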

How the data were processed

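RNA-seq of hippocampus was deposited as 14 files of assembled transcripts, which the authors assembled using CLASS 2.1.7 (per the file headers), and as 4 tables that compare 2 groups each. TopHat2 2.1.0 and the build mm10 are named in the submitters' processing notes, with no options. The deposited abundance of each transcript is a score that behaves like FPKM, judged by its steps, because its unit is stated nowhere in the labels. Per the file headers, the tables hold pooled group values in the layout of Cuffdiff, taken as FPKM, a log2 fold change given as a score, and the authors' p-value and q-value. The labels' protocols name the NEBNext Ultra and UltraII kits for all samples without saying which library used which. How reads shared between genes were divided, and whether strand was used, is not stated.

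Transcripts were assigned to GENCODE M21 genes (GRCm38, the same assembly as mm10) by a shared intron or, for single-exon transcripts, by exon overlap, and the abundances of a gene added up. Scaling between libraries used the median of ratios (13274 genes). A gene at 0 had no assembled transcript. Genes listed in 3 or more libraries (16580) entered the test, as log2(value + 0.9), with limma 3.58.1 in R 4.3.3 (eBayes with trend), in 1 fit of 14 libraries and 4 group means, with Benjamini-Hochberg adjustment to 0.05. Fold changes on this scale understate changes of low genes. On simulated data 84% of genes changed by 1 and 95% of those changed by 2 on the log2 scale were recovered for the drug effect in mutants, with 14 wrong calls. For the genotype effect under TAK-418 these shares were 86% and 97%, with 11 wrong calls. Relative depth is the smallest library total at which abundance × length of single-exon transcripts fell on whole-number steps. Multiples of that total fit too, and no read count was available to check it. Implied fragments are abundance × length × relative depth and cover counting error only. In each deposited table the named group order was the closest of all group pairs to the libraries.

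The members, the gene lists and the tests were chosen with earlier results of these data known. All 10 members are named. Other list genes are named where limma or the authors' q-value called them or where they were the most abundant of their list, and not every gene so selected is used here. The genes most like the members or Fos are named by rank. Alternatives were the pseudocount, the filter, the scaling, the summing of transcripts, the libraries in the fit and a q-value limit of 0.01. Other steps ran in Python 3.11.15 with numpy 2.4.6, pandas 2.3.3 and matplotlib 3.10.9.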

Additional observations from a re-analysis of the deposited data

Results flagged for a closer look

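Among 9 measures screened in the 5 treated wild-type libraries, 2 had a library far from the others, where chance sets apart about 1 in 20 groups. The relative depth of replicate 1 was 167.6 M fragments, next to 56.1 M in the second deepest of the group. Its 48428 assembled transcripts compared with 35896 in the next library. The 7 members screened in that group had no such library.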

How the results depend on the processing

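Limma called 0 members in every contrast and alternative run, that is, 7 contrasts under 24 alternatives and 6 under the fit on the libraries of the contrast alone, which for the interaction is the same as the full fit. The members' median log2 difference stayed within 1 SD of its reported value in all but 1 of 174 recomputed medians: for the drug effect in mutants it was 0.28 without division by transcript length, against 0.09. With each library left out in turn, the median ranged from -0.53 to -0.32 for the genotype effect under vehicle, -0.57 to -0.34 for the drug effect in wild types, -0.44 to -0.25 where treated mutants are set against vehicle wild types, 0.04 to 0.24 for the drug effect in mutants, 0.05 to 0.17 for the genotype effect under TAK-418, -0.15 to 0.05 for vehicle mutants against treated wild types and 0.39 to 0.62 for the interaction. Of 1545 recomputed values of single members 55 changed sign, none of them past the threshold, and 18 moved by more than 1 SD. With a q-value limit of 0.01 0 members were called in the authors' deposited tables that hold vehicle wild types, in place of Fos in each. In both, 0.0% of all tested loci passed that limit, so it cannot tell Fos from other loci. Leaving out the libraries rich in choroid plexus markers was chosen after seeing the data. No paired analysis was possible because the labels give no replicate numbers, and the numbers used here only name libraries. Counting error at the lowest listed value was largest for Egr2 (22.9%), and libraries without an assembled transcript limit what can be said of Egr2, Junb and Ier2.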
